A study of Rattus norvegicus with 6 samples.

Results

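The 6 genes described here are the superoxide dismutases Sod1 and Sod2, catalase (Cat), the transcription factor gene Nfe2l2, which encodes NRF2, and its target genes Nqo1 and Hmox1. They were chosen by Ensembl rat gene ID for their known function, by a rule that uses no measured value, though results of these data were known when the group was put together. All 6 IDs were present among the 32883 rows of the count table. The table gives IDs without symbols, so the pairing of symbol and ID is that of the rule which chose the genes and was not checked against an annotation. All 6 passed the filter on low counts, as did 13823 genes in all.

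The study compared RNA that came down with the RNA-binding protein muscleblind-like 1 (MBNL1) with the RNA of the lysate, by RNA immunoprecipitation and sequencing (RIP-seq). Ventricular cardiomyocytes of rats at postnatal days 1 to 2 were depleted of non-myocytes by pre-plating and were transduced for 48 h with an adenovirus that carries FLAG-tagged MBNL1 (multiplicity of infection 100). Both groups carry this construct: the 3 libraries called RIP hold RNA from the anti-FLAG pulldown, and the 3 called Input hold RNA from 10% of the lysate, taken after nuclei and debris were pelleted. The labels name no strain, sex or shared batch. Nor do they say if replicates came from separate cultures, and the p-values then cover only the spread among these libraries, which may be technical. No control IgG library was analysed here, nor any of untransduced cells, so RNA held by beads or antibody alone cannot be told apart from RNA held by the tagged protein. Depth was 17265349 to 18145453 counts in RIP and 19150577 to 19325661 in Input. The labelled cell type and the overexpressed gene could not be checked, because their markers could not be matched to IDs.

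Cells dispose of superoxide in steps. SOD1, a copper and zinc enzyme found mainly in the cytosol, and SOD2, the manganese enzyme of the mitochondrial matrix, turn superoxide into hydrogen peroxide, and catalase, mostly in peroxisomes, breaks hydrogen peroxide down to water and oxygen. NRF2 is held at low levels by KEAP1, which marks it for degradation. Under oxidative stress it escapes, pairs with small MAF proteins at antioxidant response elements and raises the transcription of genes such as Nqo1, whose product reduces quinones, and Hmox1, whose product breaks heme down to biliverdin, carbon monoxide and iron. Cardiomyocytes are rich in mitochondria, a main source of superoxide. MBNL1 is known for its roles in splicing and in the localisation and stability of mRNA.

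These genes did not move as a block in the pulldown. Sod1 was the most depleted, at 48.5% of its Input level, Nqo1 and Hmox1 were depleted to 76.4% and 77%, and Cat was enriched to 132%. Sod2 and Nfe2l2 did not pass the test (quasi-likelihood test in edgeR, p adjusted over all genes by Benjamini-Hochberg, threshold 0.05). Thus 1 of 6 genes was enriched, where 33% of all tested genes were, and 3 of 6 were depleted, where 34.9% of all tested genes were. In either direction 4 of 6 passed, against 67.9% of all tested genes, so the count of calls among these genes is near that of the whole table. Among genes with Input levels like theirs, calls were commoner than in the whole table, as given below. Their median log2 fold change was -0.17, beside -0.03 over all tested genes.

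**Figure D1:**
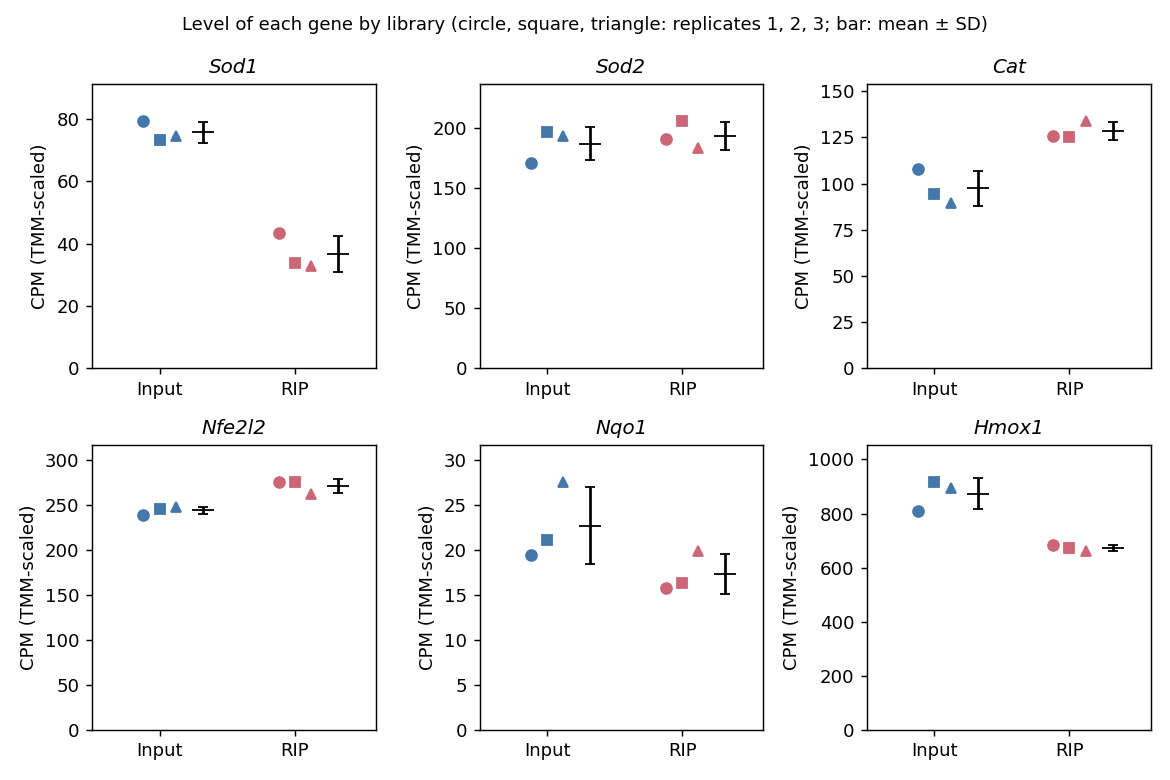
Level of each of the 6 genes in CPM (counts per 1000000 of the library, TMM-scaled, y axes from 0) in each Input and RIP library, with replicates 1 to 3 as circle, square and triangle and the mean ± SD beside them (n = 3 per group). Sod1 and Hmox1 lie lower and Cat and Nfe2l2 higher in every RIP library than in every Input library, whereas Sod2 and Nqo1 overlap.

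Sod1 (ENSRNOG00000002115) showed the clearest difference. Its level was 43.5, 33.9 and 33 CPM in RIP replicates 1, 2 and 3, and 79.5, 73.3 and 74.5 CPM in Input replicates 1, 2 and 3. CPM values were scaled with TMM factors, which even out differences in library composition. The groups stood well apart, with the highest RIP library, replicate 1, still far below the lowest Input library. The means were 36.8 ± 5.83 CPM in RIP and 75.8 ± 3.27 CPM in Input (SD, n = 3 each), and the log2 fold change of RIP over Input was -1.04 with an SE of 0.09 (95% interval -1.24 to -0.85, edgeR adjusted p = 1.62e-09). These values rest on 562 to 683 counts per RIP library and 1495 to 1560 per Input library. The lysate is of bulk cells, so in an Input level by itself fewer cells of a type and less RNA per cell cannot be told apart.

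Sod2 (ENSRNOG00000019048), the mitochondrial counterpart, was recovered at about its lysate level. It measured 191, 206 and 183 CPM in RIP and 171, 197 and 193 CPM in Input, and the ranges of the groups overlapped over most of their width. The means were 193 ± 11.6 and 187 ± 14.4 CPM (SD, n = 3 each), which gives a log2 fold change of 0.05 with an SE of 0.08 (edgeR adjusted p = 0.628). The 95% interval of this difference, -0.12 to 0.21, leaves room for a small change in either direction but not for one of the size seen for Sod1. The sign of the estimate followed the scaling: it was -0.03 on the log2 scale with upper-quartile factors and -0.11 with the plain library sizes, and passed the test in neither.

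Cat (ENSRNOG00000008364) was the one gene of the group past the threshold with a higher level in the pulldown. It measured 126, 125 and 134 CPM in RIP and 108, 94.6 and 89.6 CPM in Input. Every RIP library lay above every Input library, and Input replicate 1 came closest to the RIP values. The means were 128 ± 4.97 and 97.3 ± 9.29 CPM (SD, n = 3 each), and the log2 fold change was 0.40 with an SE of 0.08 (95% interval 0.24 to 0.56, edgeR adjusted p = 0.000126). With library sizes only it was 0.25 (edgeR adjusted p = 0.0267).

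Nfe2l2 (ENSRNOG00000001548), which encodes the regulator of the axis, lay at the threshold. Its level was 275, 275 and 262 CPM in RIP and 239, 245 and 247 CPM in Input, so the groups did not overlap although the gap between them was small. The means were 270 ± 7.41 and 244 ± 4.09 CPM (SD, n = 3 each), which gives a log2 fold change of 0.15 with an SE of 0.07 (95% interval 0 to 0.3, edgeR adjusted p = 0.0675, unadjusted 0.0472). The call depended on the method, and Nfe2l2 passed under 4 of the 19 alternatives run. The adjusted p was 0.019 in DESeq2, 0.0474 in limma-voom and 0.0351 in edgeR with DESeq2 size factors. In edgeR it was 0.338 with upper-quartile factors and 0.225 with a filter at 5 CPM. On plain library sizes the log2 fold change was 0 (edgeR adjusted p = 0.983). In CPM of the library total, without TMM, the values were 243.76, 263.77 and 261.88 in RIP and 243.07, 270.26 and 257.23 in Input, and then the groups overlapped. Leaving out RIP replicate 3, the lowest of its group in TMM-scaled CPM, gave an adjusted p of 0.033. No other of the 9 fits with a library or a same-numbered pair left out passed.

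Both NRF2 target genes were lower in the pulldown, and by nearly the same factor. Such a factor was common, since 589 tested genes had a log2 fold change between -0.4 and -0.3. Hmox1 (ENSRNOG00000014117) measured 683, 672 and 662 CPM in RIP and 810, 916 and 895 CPM in Input. The RIP libraries lay close together and all below the Input libraries, of which replicate 1 was the lowest. The means were 672 ± 10.4 and 873 ± 56.4 CPM (SD, n = 3 each). The log2 fold change was -0.38 with an SE of 0.08 (95% interval -0.54 to -0.22, edgeR adjusted p = 0.000186). It had the most counts of the 6 genes, 10725 to 12015 per RIP library and 15768 to 19501 per Input library, and made up 50.6% to 59.2% of the counts of these genes in a library.

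Nqo1 (ENSRNOG00000012772) had the fewest counts, 246 to 359 per RIP library and 378 to 551 per Input library. Its level was 15.7, 16.3 and 19.8 CPM in RIP and 19.4, 21.1 and 27.5 CPM in Input. Replicate 3 was the highest of its group in both, and RIP replicate 3 reached just above Input replicate 1, so the groups overlapped. The means were 17.3 ± 2.21 and 22.7 ± 4.26 CPM (SD, n = 3 each), and the log2 fold change was -0.39 with an SE of 0.12 (95% interval -0.65 to -0.13, edgeR adjusted p = 0.00869). Without Input replicate 3 the log2 fold change was -0.23 with an SE of 0.12 (edgeR adjusted p = 0.112), and 2 of the 6 genes were then called depleted. Without replicate 3 of both groups it was -0.34 (edgeR adjusted p = 0.0187), and it passed under the other alternatives run, over which the adjusted p was at most 0.0492.

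Groups without overlap were seen for 4 of the 6 genes, 2 lower and 2 higher in RIP. Over all tested genes the share without overlap was 71.1%, with 36.8% lower and 34.3% higher in RIP, so a separation of the 3 RIP from the 3 Input libraries was the usual state of a gene in this experiment.

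**Figure D2:**
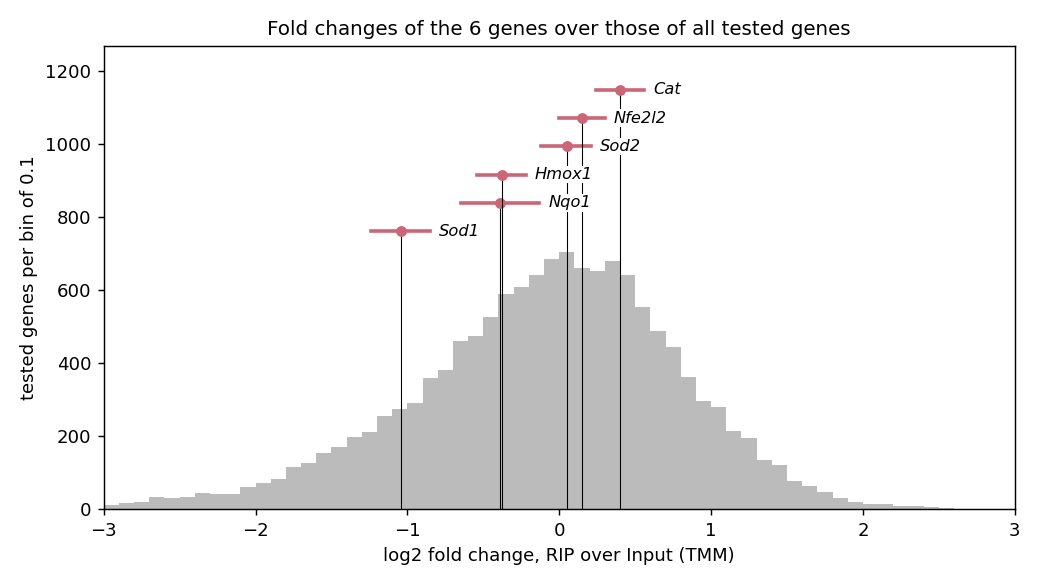
Histogram of the log2 fold changes of RIP over Input of the tested genes, in bins of 0.1 between -3 and 3 (genes beyond these limits are not drawn), with the estimates of the 6 genes as points and their 95% intervals as bars. Sod1, at -1.04, lies in the left flank, and the other genes, from -0.39 to 0.40, lie in the central bulk.

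Set against all tested genes, the fold changes of this group were moderate. For Sod1, 14.2% of tested genes had a lower log2 fold change, and for Cat 70.9% did. The shares were 33.6% for Nqo1, 34.2% for Hmox1, 53.6% for Sod2 and 59.1% for Nfe2l2. The quartiles of all tested genes lay at -0.63 and 0.49, so Sod1 alone among the 6 fell outside them. A fold change here is relative to the other RNAs of a library, since the total RNA recovered is not in the counts.

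The position of a gene shifted when it was set beside genes of like counting depth. Tested genes were divided into 10 equal bins by Input CPM, bin 10 being the highest, which also grows with transcript length and is no measure of molecules. Cat, Sod2, Nfe2l2 and Hmox1 all fell in bin 10, where 53.7% of genes were enriched and 31.3% depleted and the median log2 fold change was 0.26. In that bin the fold change of Cat lay above 57.3% of the genes, that of Nfe2l2 above 45%, that of Sod2 above 40.6% and that of Hmox1 above 25.5%. Cat, at rank 1375 by Input CPM, lay at the lower edge of this bin, so most genes in the bin had more reads. Sod1 fell in bin 9, where the median was 0.15, 48.6% of genes were enriched and 32.6% of genes were depleted, and its fold change lay above 9.26% of them. Nqo1 fell in bin 7, with a median of 0.01 and 38.4% of genes depleted, and its fold change lay above 32% of them. These shares describe the table and carry no test.

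Ratios between these genes within a library do not depend on how libraries are scaled, so they show directly which genes changed relative to each other. For each of the 15 pairs the log2 ratio of counts in the 3 RIP libraries was compared with that in the 3 Input libraries. In 10 pairs the groups did not overlap. Over all pairs of one of these genes with any other tested gene the share was 69.3%. A two-sided exact permutation test allows no p below 0.1 with 3 against 3 libraries, and all 10 pairs reached that value (Benjamini-Hochberg adjusted over 15 pairs, p = 0.15), so no pair can pass a threshold of 0.05 in this test.

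**Figure D3:**
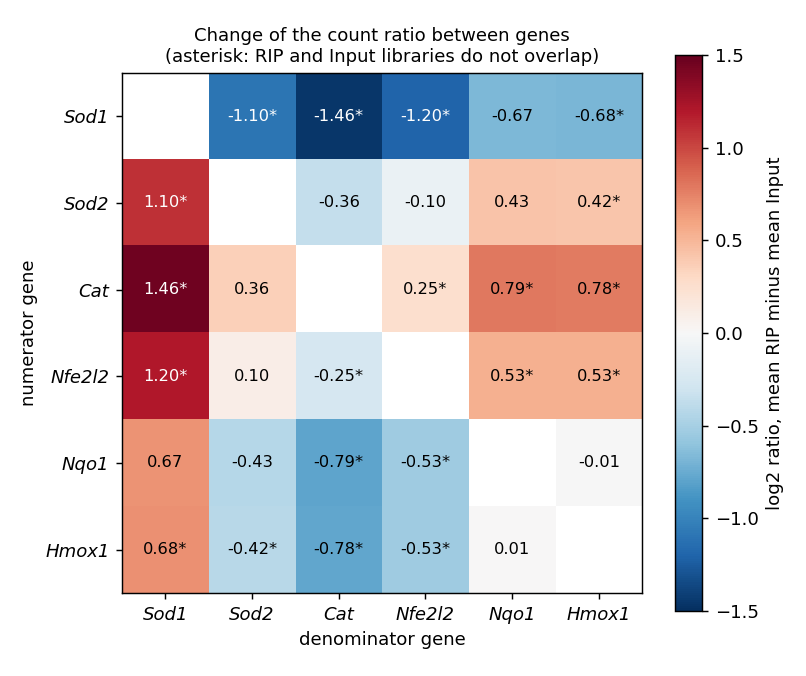
Change of the log2 count ratio of each row gene over each column gene, as the mean of 3 RIP libraries minus the mean of 3 Input libraries, with an asterisk where the libraries of the groups do not overlap. The row of Sod1 is negative throughout, and the cell for Nqo1 over Hmox1, at -0.01, is the closest to 0.

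The ratio of Sod1 to each of the other genes was lower on average in RIP. The log2 ratio of Sod1 to Sod2 was -2.13, -2.6 and -2.47 in RIP and -1.1, -1.43 and -1.38 in Input, so the cytosolic and the mitochondrial dismutase differed in recovery by -1.10 on the log2 scale with no overlap (exact permutation p = 0.1). The ratio of Sod1 to Cat, the genes with the lowest and the highest fold change, changed the most of all pairs, by -1.46. Its means were -1.81 ± 0.26 in RIP and -0.36 ± 0.09 in Input (n = 3 each, SD). Against Nqo1 the mean change was -0.67, and there the libraries overlapped (exact permutation p = 0.2). Across the table, the ratio of Sod1 to another tested gene was lower in every RIP than in every Input library for 73% of genes and higher in every RIP library for 7.23%.

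The ratios of the regulator to its targets also did not overlap between groups (exact permutation p = 0.1 for each pair). Such separation was common. The ratio to another tested gene did not overlap for 70.7% of genes with Nfe2l2, 71.2% with Hmox1 and 58.6% with Nqo1. The log2 ratio of Nfe2l2 to Hmox1 was -1.31, -1.29 and -1.34 in RIP and -1.76, -1.9 and -1.86 in Input. These values were tight within each group and far apart between them, with a change of 0.53. The ratio of Nfe2l2 to Nqo1 changed by the same 0.53, from 3.44 ± 0.24 to 3.98 ± 0.22 (SD, n = 3 each), with no overlap. The ratio of Nqo1 to Hmox1, both NRF2 targets, was -5.29 ± 0.2 in RIP and -5.28 ± 0.22 in Input (n = 3 each, SD; exact permutation p = 0.9), so these 2 transcripts kept their proportion to within the spread of the libraries.

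The ratio of Cat to every other gene of the group was higher on average in RIP, but not always beyond the spread. Its ratio to Hmox1 changed by 0.78 on the log2 scale and its ratio to Nqo1 by 0.79, both without overlap. Relative to Nfe2l2 the change was 0.25, also without overlap. Such separation was common for Cat too, whose ratio to another tested gene did not overlap for 69.5% of genes. Between Sod2 and Cat the mean change was -0.36, but Input replicate 1 overlapped the RIP values (exact permutation p = 0.2). Between Sod2 and Nfe2l2 it was -0.10, with overlap (exact permutation p = 0.2).

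As a share of the counts of the 6 genes together, the mix changed in the same sense. Hmox1 made up 51 ± 0.35% in RIP and 58.2 ± 1.26% in Input, and Nfe2l2 20.5 ± 0.236% and 16.3 ± 0.463% (SD, n = 3 each). Sod1 made up 2.79 ± 0.411% in RIP and 5.06 ± 0.448% in Input, and Cat 9.74 ± 0.54% and 6.51 ± 0.906%. Sod2 made up 14.6 ± 0.736% in RIP and 12.5 ± 0.427% in Input. For these 5 genes the groups did not overlap, and for Nqo1, at 1.31 ± 0.191% and 1.51 ± 0.253%, they did. Groups without overlap were common, at 71.1% of all tested genes in TMM-scaled CPM. No such background was computed for shares of the 6 genes. Since shares add up to a whole, the lower share of Hmox1 alone lifts those of the others. Sod2, whose share was higher in RIP, overlapped in CPM, with a log2 fold change of 0.05. All 6 genes together made up 0.118% to 0.129% of the counts of a RIP library and 0.145% to 0.17% of an Input library. Without Hmox1 these ranges were 0.0577% to 0.0631% and 0.0627% to 0.0696%, which overlap.

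The spread between libraries was above that of counting alone for each gene and group, though by little for Nfe2l2 in Input. It was not the same for all genes. For Hmox1 the coefficient of variation of the CPM was 1.54% in RIP and 6.46% in Input, where counting error alone gives 0.942% and 0.754%. For Nfe2l2 it was 2.74% and 1.68%, where counting error alone gives 1.49% and 1.42%. For Nqo1 it was 12.8% and 18.8% against 5.93% and 4.72%. For Sod1 it was 15.8% in RIP against 4.05%, and 4.31% in Input against 2.55%. The values of Sod2 were 6.01% in RIP and 7.68% in Input against 1.76% and 1.63%. Those of Cat were 3.88% in RIP and 9.55% in Input against 2.16% and 2.26%. Replicate spread and not depth therefore sets most of the error of these genes, apart from Nfe2l2 in Input. These counting errors cover sampling of reads only.

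The genes whose libraries followed each of these patterns most closely were sought among 9750 others with a mean of at least 5 CPM. The measure was the root mean square difference, over the 6 libraries, of log2 CPM centred on each gene's own mean. The closest to Hmox1 was ENSRNOG00000019892, at a difference of 0.026, which measured 164 ± 4.57 CPM in RIP and 208 ± 10.6 CPM in Input (SD, n = 3 each). The closest to Sod1 was ENSRNOG00000013386, at 0.045, with 30.6 ± 5.08 and 64.1 ± 3.46 CPM (SD, n = 3 each). The closest to Cat was ENSRNOG00000031669, at 0.033, with 41.7 ± 0.862 and 32.1 ± 2.08 CPM (SD, n = 3 each). Close patterns do not mark a particular partner: 382 genes lay within 0.1 of Hmox1, 80 of Sod1 and 347 of Cat. Within the same limit lay 806 genes for Nfe2l2 and 336 for Sod2. Nqo1 had the fewest, at 16. Other genes of the NRF2 pathway, such as Keap1, Gclc, Gclm and Txnrd1, are not described, because their symbols could not be matched to IDs.

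**Figure D4:**
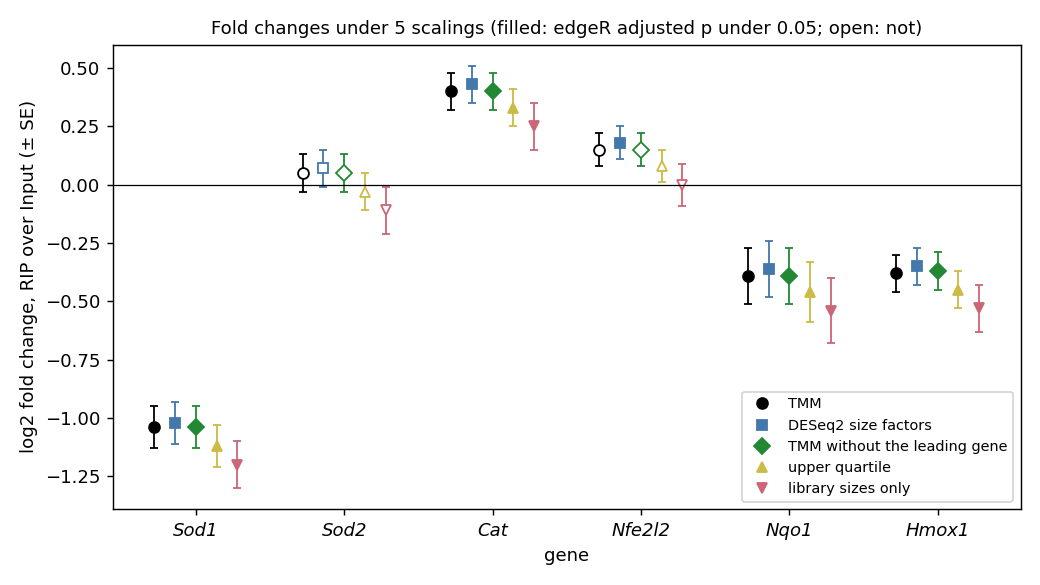
Log2 fold change of RIP over Input ± SE of each of the 6 genes in edgeR under 5 scalings of the libraries, filled where the adjusted p is under 0.05 and open where it is not. Sod1, Cat, Nqo1 and Hmox1 keep their direction and stay filled under all 5, Sod2 changes sign and is open throughout, and Nfe2l2 is filled with DESeq2 size factors only.

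The scaling of the libraries moved all genes together. With library sizes only, the median log2 fold change of all tested genes was -0.18 and 38.2% of the called genes were enriched, where TMM gave -0.03 and 48.6%. Relative to the median of all tested genes the 6 values were the same to 2 decimals under all 5 scalings shown: -1.02 for Sod1, -0.36 for Nqo1, -0.35 for Hmox1, 0.07 for Sod2, 0.18 for Nfe2l2 and 0.43 for Cat. A shift common to all genes cancels against the median, so this sameness follows from the arithmetic and adds no evidence. Among these genes the choice of scaling changed the sign of Sod2 and the call of Nfe2l2, whose value was 0 after rounding with library sizes only, and no other call.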

How the data were processed

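Raw read counts per Ensembl rat gene were used as deposited, with no normalization. The submitters' processing notes name STAR, featureCounts and DESeq2. Their versions and settings, the build and the annotation are not given in the sources used, so no coordinates are printed and reads shared with pseudogene copies could not be checked. None of the IDs matched the RefSeq gene table (GRCr8), which lists no Ensembl ID for any of its 47357 genes. Transcript sequences were not used here.

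Genes were filtered with filterByExpr (minimum count 10, minimum total 15). RIP and Input were compared in edgeR 4.0.16 (R 4.3.3) by the quasi-likelihood F test on all 6 libraries, with TMM factors, no covariate and Benjamini-Hochberg adjustment over 13823 genes. Standard errors are the size of the log2 coefficient divided by the root of F, and intervals (95%) use the test's t distribution. The test was tested on simulated counts. DESeq2 1.42.0, limma 3.58.1 (voom), other scalings, other filters, thinning, left-out libraries and a replicate block were alternatives. No 2 libraries of a group were duplicates (chi-square per degree of freedom 7.26 to 38.91). The genes and lists were chosen with earlier results of these data known. Every member is named. Other genes are named only by ID, as the closest pattern to a member, where that gene passed the test. Of these at most 2 that rose and 2 that fell are named, those with the smallest differences. The closest gene to Nqo1, at a difference of 0.054, is left out by this limit, although it passed. The bins by Input level, the shares of the counts of the 6 genes, the ratios to all other genes and the values relative to the median were added after values had been seen.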

Additional observations from a re-analysis of the deposited data

How the results depend on the processing

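Sod1, Cat and Hmox1 passed the threshold in the same direction under all 19 alternatives, with log2 fold changes of -1.20 to -0.96, 0.25 to 0.49 and -0.53 to -0.34. Nqo1 did so under 18, from -0.54 to -0.23, and did not pass without Input replicate 3 (edgeR adjusted p = 0.112; range over the alternatives 0.000995 to 0.112). The count of genes enriched among the 6 rose from 1 to 2, by Nfe2l2, in DESeq2, in limma-voom, in edgeR with DESeq2 size factors and without RIP replicate 3. With single libraries or same-numbered pairs left out it was 1 to 2, and the count depleted 2 to 3. The adjusted p of Nfe2l2 ranged from 0.019 to 0.983, and its log2 fold change with library sizes only was 0 after rounding, marginally on the negative side. Sod2 passed in no alternative and changed sign in 5: -0.11 with library sizes only, -0.03 with upper-quartile factors, -0.01 with the filter at 5 CPM, -0.03 without Input replicate 1 and -0.01 without replicate pair 1. With single libraries left out it ran from -0.03 to 0.09. The cause of these changes was not tested, beyond the common shift of all genes with the scaling. The pairs of genes with separated ratios numbered 11 to 12 with a library left out, since fewer libraries leave fewer chances of overlap, and 10 with counts plus 1.

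Same-numbered RIP and Input libraries deviated together only weakly, with correlations of 0.054, 0.172 and 0.063, although each correlated best with its own number. The main test did not take the numbers as pairs because the labels do not say that they mark pairs. These correlations do not settle whether they do. With the replicate block, the calls among the 6 genes were 1 enriched and 3 depleted, and over all genes 4616 enriched and 4877 depleted. The edgeR adjusted p of each of the 6 was lower with the block, at 0.00147 for Nqo1 and 6.2e-05 for Hmox1. That of Nfe2l2, at 0.0579, still did not pass.

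With a standard error of 0.07 to 0.12 for these genes, and 0.17 the smallest change past the threshold in the whole table, small differences such as those of Sod2 were not detectable with 3 libraries a group.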
